A study of Mus musculus with 24 samples.

Results

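The sarcomeric myosin heavy chains are the 8 genes Myh1, Myh2, Myh3, Myh4, Myh6, Myh7, Myh7b and Myh8, chosen by name among the 54532 genes counted in every sample, with symbols taken from GENCODE M21. All 8 were listed in each of the 24 samples. Bulk RNA-Seq was carried out on tongue, muscle, stomach and heart from Trex1-/- mice, which lack the DNA exonuclease TREX1 and activate the cGAS-STING pathway. In each tissue 3 control samples were set against 3 samples from mice given SN-011, a STING antagonist, and the question was what the antagonist changed. The labels call the controls untreated and give a dose of 5 mg/kg SN-011, repeated 3 times weekly during 4 weeks, whereas the methods of the study describe a vehicle control and a higher dose given daily for a shorter time to 1-month-old mice. Every sample carried the deletion, so no wild-type level was at hand, and the labels do not say which muscle was taken.

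Myosin heavy chain is the motor of the thick filament, and its isoform sets how fast a fiber contracts. In adult skeletal muscle Myh4 encodes the fastest isoform (type IIb), Myh1 the IIx isoform, Myh2 the IIa isoform and Myh7 the slow isoform, which is also the beta chain of the heart. Myh6 encodes the alpha chain that dominates the adult mouse ventricle and atrium, Myh7b an ancient slow-type chain, and Myh3 and Myh8 the embryonic and perinatal chains that are replaced as muscle matures.

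Total counts per sample were 14253416 to 18443329, and 3 counts, taken as the smallest amount that can be shown, corresponded to 0.163 to 0.210 CPM (the count scaled to a library of 1e6 counts), a limit that covers counting error only. Control replicate 1 of each tissue was high in Xist, a transcript of the inactive X chromosome (3060 to 13811 counts), and held at most 3 counts of Ddx3y, from the Y chromosome, while the other samples had at most 20 and at least 825, so this control differed in sex from all other samples. Control replicates 2 and 3 of the heart, muscle and tongue held 291 to 3077 CPM of 8 summed gastric gland markers, against 6.38 to 49.3 CPM in the other samples of these tissues. Only 11546 genes were detected in SN-011 replicate 2 of the muscle, against at least 19798 in every other muscle sample. Nothing in the labels says that the samples of a group came from separate mice, so p-values measure the spread between these samples. In bulk tissue, fewer fibers of a type and less RNA per fiber cannot be told apart.

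Of the genes, 5 lie in a row on the forward strand of chromosome 11 (GRCm38), in the order Myh3 (67078300 to 67102291), Myh2 (67171027 to 67197517), Myh1 (67200052 to 67224575), Myh4 (67238029 to 67260446) and Myh8 (67277124 to 67308634). Myh6 (54941921 to 54966927) and Myh7 (54970684 to 54994626) are neighbors on the reverse strand of chromosome 14, and Myh7b (155611212 to 155634307) lies on chromosome 2. The coding sequences of the adult fast chains were close to each other, with 90.2% of aligned bases identical between Myh4 and Myh1 and 91.0% between Myh1 and Myh2. Myh6 and Myh7 shared 91.7%, whereas Myh7b shared 68.7% to 72.1% with the other members. Of the stretches of 150 bases in each member's longest coding transcript, the share found letter for letter in another Myh gene was 6.22% for Myh1, 5.63% for Myh6, 5.43% for Myh7, 2.06% for Myh2, 1.6% for Myh8, 0.521% for Myh4, 0.308% for Myh3 and 0% for Myh7b. The study counted uniquely mapped read pairs, so pairs that lie wholly within such stretches have no unique gene and would be left out.

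The bases before the start sites of Myh4, Myh1, Myh2 and Myh8 are shown because these neighbors on chromosome 11 share sequence upstream yet were counted at different levels in muscle, tongue and stomach. The 250 bases upstream of each RefSeq start site (GRCm38, forward strand) are in lower case, with capitals for the longest run of 14 bases found in all 4.
Myh4, chr11:67237562-67237811: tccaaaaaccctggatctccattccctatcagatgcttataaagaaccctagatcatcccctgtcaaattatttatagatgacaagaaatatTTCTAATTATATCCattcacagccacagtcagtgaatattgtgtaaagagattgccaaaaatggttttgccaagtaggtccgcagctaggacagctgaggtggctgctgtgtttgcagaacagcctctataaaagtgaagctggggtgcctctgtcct
Myh1, chr11:67199852-67200101: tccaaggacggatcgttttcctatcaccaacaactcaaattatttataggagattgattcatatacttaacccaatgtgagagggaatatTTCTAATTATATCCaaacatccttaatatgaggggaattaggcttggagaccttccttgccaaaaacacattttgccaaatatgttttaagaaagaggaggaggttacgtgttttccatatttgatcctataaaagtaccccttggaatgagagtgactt
Myh2, chr11:67170777-67171026: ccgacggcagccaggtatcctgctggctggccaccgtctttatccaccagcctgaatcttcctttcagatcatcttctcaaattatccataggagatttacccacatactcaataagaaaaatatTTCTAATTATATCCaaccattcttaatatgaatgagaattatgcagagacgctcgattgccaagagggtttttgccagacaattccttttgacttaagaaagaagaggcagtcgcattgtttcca
Myh8, chr11:67276874-67277123: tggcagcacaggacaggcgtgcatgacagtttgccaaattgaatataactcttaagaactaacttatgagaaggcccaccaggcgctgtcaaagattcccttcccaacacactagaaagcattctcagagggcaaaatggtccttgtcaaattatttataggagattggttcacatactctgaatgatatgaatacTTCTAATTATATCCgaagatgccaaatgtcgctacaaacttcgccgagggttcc
Among 32817 RefSeq promoter windows of the same length, the run was found on either strand in these 4 genes alone, a share of 0.0122%. Myh1 and Myh8 shared a longer run of 22 bases, and Myh2 shared 21 bases with each of Myh4 and Myh1. The letters TATAAA were found on either strand in 4 of the 8 members (Myh4, Myh1, Myh3 and Myh8) and in 12.4% of all windows. The CArG box was found in Myh4 only among the members and in 1.47% of all windows, and an E box (CANNTG) in 6 of 8 members against 66.2%. A narrow form of the MEF2 site (CTA and TAG with any 4 bases between) was found in 0 members against 3.2%. Other forms of the MEF2 site were not searched, so this does not show that the members lack one. These matches describe the letters of the windows and no factor was measured on them.

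Each tissue had its own leading chain. To compare genes, counts were scaled to CPM with edgeR's TMM factors within a tissue and divided by the kilobases of the gene's exons (CPM per kb). In control muscle, Myh4 led at 7261, 8052 and 6310 CPM per kb in replicates 1, 2 and 3. Myh1 followed at 659, 593 and 581, and Myh2 at 117, 64.6 and 142. The values of the adult fast chains did not overlap one another in any muscle sample, so the order Myh4, Myh1, Myh2 held in all 6.

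Slow Myh7 was far below the fast chains in control muscle, at 11.3, 2.94 and 15.5 CPM per kb. Control replicate 2 was the lowest, and its slow light chain Myl2 was also the lowest, at 15.2 CPM against 107 and 102. Myh7b, Myh3, Myh6 and Myh8 had control means of 0.668, 0.629, 0.480 and 0.457 CPM per kb in muscle, with SDs of 0.220, 0.370, 0.138 and 0.0664 (n = 3), and these neighbors in the order do not differ beyond their spread.

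In control tongue Myh4 led again, at 1404, 1429 and 950 CPM per kb, ahead of Myh1 at 551, 382 and 341. Myh2 stood at 1.77, 1.09 and 1.49 CPM per kb, so the IIa chain was far below the IIx chain in every control tongue. Myh7 had 0, 2 and 0 counts in the control tongues and 0 in all 3 SN-011 tongues, where 3 counts over the group would be 0.0638 CPM. Myh8 (0.554 ± 0.268 CPM per kb, SD, n = 3) and Myh3 (0.546 ± 0.299) did not differ beyond their spread in tongue.

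The heart was led by Myh6, at 2527, 2641 and 1780 CPM per kb in the controls. Myh7, the beta chain, was at 74.4, 79.4 and 46.6 CPM per kb, and Myh7b at 6.37, 12.2 and 8.35. The groups of values of these 3 genes were separate in every heart sample. The 5 chains of chromosome 11 had at most 14 counts in any heart.

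The stomach held little of any sarcomeric chain, and its control samples did not resemble each other. Myh1 had 230, 0 and 0 counts in control replicates 1, 2 and 3, and Myh8 had 366, 5 and 4. Myh2 had 62, 0 and 11 counts, and Myh4 had 0 counts in all 6 stomachs, which allows at most 0.0603 CPM over the controls. In these controls, 8 summed skeletal muscle fiber markers were at 590, 113 and 104 CPM, and 6 smooth muscle markers at 8402, 1498 and 2908 CPM, so the control stomach with the most sarcomeric myosin also held the most of both. Their part in the result was not tested.

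**Figure D1:**
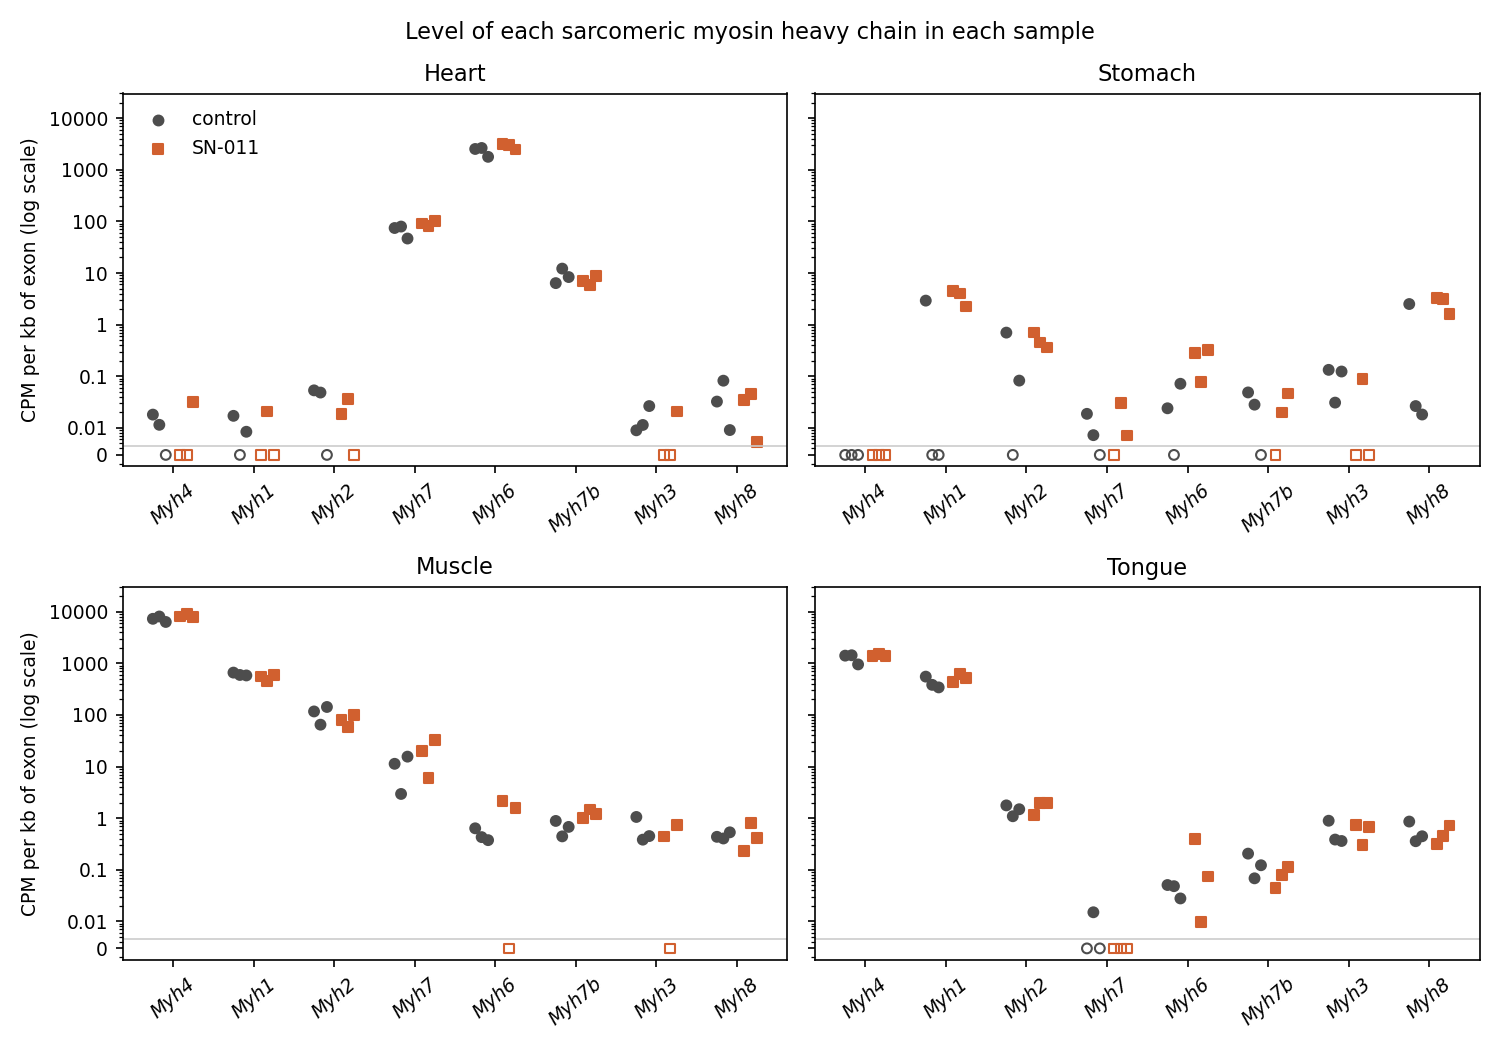
Level of each member in each sample, in CPM per kb of exon on a log scale, with a panel per tissue, filled circles for controls and squares for SN-011. Open symbols below the grey line are samples with 0 counts. Myh6 leads in the heart and Myh4 in muscle and tongue, and Myh1 and Myh8 are the highest in the stomach samples that hold more than 100 counts of them.

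Most of the members differed between control tissues. In a joint edgeR quasi-likelihood fit of all 24 samples, 38 of the 48 differences between control tissues (8 members over 6 pairs of tissues) had an adjusted p under 0.05 after Benjamini-Hochberg adjustment over 19731 genes. By pair, 8 of 8 members differed between heart and muscle and 8 of 8 between heart and tongue, where 33.7% and 29.1% of all genes did. Between heart and stomach 6 of 8 differed (42.5% of all genes), between stomach and muscle 7 of 8 (51.6%), between stomach and tongue 4 of 8 (36.9%) and between muscle and tongue 5 of 8 (38.1%). Tissues differ widely in what they express, so a share of all genes this large is the background for these counts. The same 38 differences passed with the same sign when libraries were scaled by their totals alone.

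Myh4 was higher in muscle than in tongue by 3.48 on the log2 scale (SE 0.44, adjusted p = 1.01e-05, edgeR quasi-likelihood test), and by 2.66 with library totals alone. Counted over the 3 controls, this was 2436348 against 373026 counts, a ratio of 6.33 in CPM. Myh1 did not pass the threshold between these tissues (log2 difference 1.49, SE 0.97, adjusted p = 0.245, and 0.67 with library totals alone). Myh2 was higher in muscle by 7.18 on the log2 scale (SE 0.88, adjusted p = 1.71e-06), with 44057 against 512 counts, a ratio of 83.4 in CPM (95% counting interval 76.4 to 91.2). Of the adult fast chains, IIb and IIa thus passed the threshold between muscle and tongue and IIx did not, which does not show that its level was the same.

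For the slow and cardiac chains, Myh7 was higher in heart than in muscle by 1.87 on the log2 scale (SE 0.59, adjusted p = 0.0196), with 29197 against 4945 counts, and by 2.70 (adjusted p = 0.00102) with library totals alone. Myh7b was higher in heart than in muscle by 2.87 (SE 0.48, adjusted p = 0.000106) and than in tongue by 6.14 (SE 0.58, adjusted p = 1.01e-07). Myh6 had 793489 counts in the control hearts and 182 in the control muscles, a ratio of 4647 in CPM (95% counting interval 4018 to 5403). Of the developmental chains, Myh3 and Myh8 did not pass the threshold between muscle and tongue, at 1.16 (SE 1.00, adjusted p = 0.389) and 0.69 (SE 1.03, adjusted p = 0.635).

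As shares of the 8 members per kb of exon, Myh4 made up 90.2%, 92.4% and 89.5% of the control muscles and 92.5%, 94.6% and 91.7% of the SN-011 muscles. Myh1 made up 8.19%, 6.81% and 8.24% of the control muscles and 6.34%, 4.75% and 6.75% of the SN-011 muscles. The SN-011 values of Myh1 all lay below the controls, with means of 5.95 ± 1.06% and 7.74 ± 0.81% (SD, n = 3). The exact permutation test (two-sided) gave p = 0.1, which is the smallest value that 3 samples against 3 can reach, and 0.3 after adjustment over the 3 shares of muscle above 1%. The ratio of Myh4 to Myh1 per kb, which no scaling of the library can move, ranged from 10.9 to 13.6 in the control muscles (11.8 ± 1.52, SD, n = 3) and was 14.6, 19.9 and 13.6 after SN-011 (16.0 ± 3.39, exact permutation p = 0.1). The lowest SN-011 value and the highest control value were nearly equal, and the highest value came from SN-011 replicate 2, the library with few genes counted.

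Myh2 made up 1.45%, 0.741% and 2.02% of the control muscles and 0.901%, 0.596% and 1.14% after SN-011, and these groups overlap (exact permutation p = 0.3). In tongue, Myh4 made up 74.7 ± 3.72% in controls and 73.3 ± 2.61% after SN-011, and Myh1 25.2 ± 3.68% and 26.5 ± 2.61% (SD, n = 3, exact permutation p = 0.6 for both). Leaving out control replicate 2 turned these small tongue differences around. The Myh1 share of every tongue, 21.1% to 29.0%, was above that of every muscle, 4.75% to 8.24%, in both treatment groups (exact permutation p = 0.1 each). Myh1 exceeded Myh2 per kb by 229 to 378 times in tongue and by 4.08 to 9.18 times in muscle.

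In the heart, Myh6 made up 96.9%, 96.6% and 97.0% in controls and 97.0%, 97.2% and 95.7% after SN-011. Myh7 made up 2.85%, 2.91% and 2.54% in controls and 2.79%, 2.58% and 3.99% after SN-011 (exact permutation p = 0.8). SN-011 replicate 3 stood apart with the highest beta-chain share, and without it the difference in the Myh7 share went from 0.355 to −0.0777 percentage points. The same heart had the lowest sum of 5 atrial markers, 1117 CPM, against 1390 to 4290 CPM in the other hearts, and whether the piece of heart taken bears on the share was not tested.

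In the stomach, only 4 samples held enough of these transcripts to give shares. In the 3 SN-011 stomachs, with 1255, 1015 and 629 counts of the members, Myh1 made up 51.7%, 51.3% and 48.8% and Myh8 37.1%, 40.2% and 35.3%. Control replicate 1, with 676 counts, was close to them at 46.0% and 39.5%. Control replicates 2 and 3 held 12 and 38 counts, so that the interval of their leading chain's count share (Wilson, 95%) ran from 19.3% to 68.0% and from 23.4% to 52.7%, and their shares are not read. By count Myh8 exceeded Myh1 in each of these 4 samples, and the order is turned by length because the union of Myh8's exons is 11772 bases against 6353 for Myh1. The longest transcripts are 6149 and 6081 bases, so the order of Myh1 and Myh8 in the stomach depends on the length used.

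**Figure D2:**
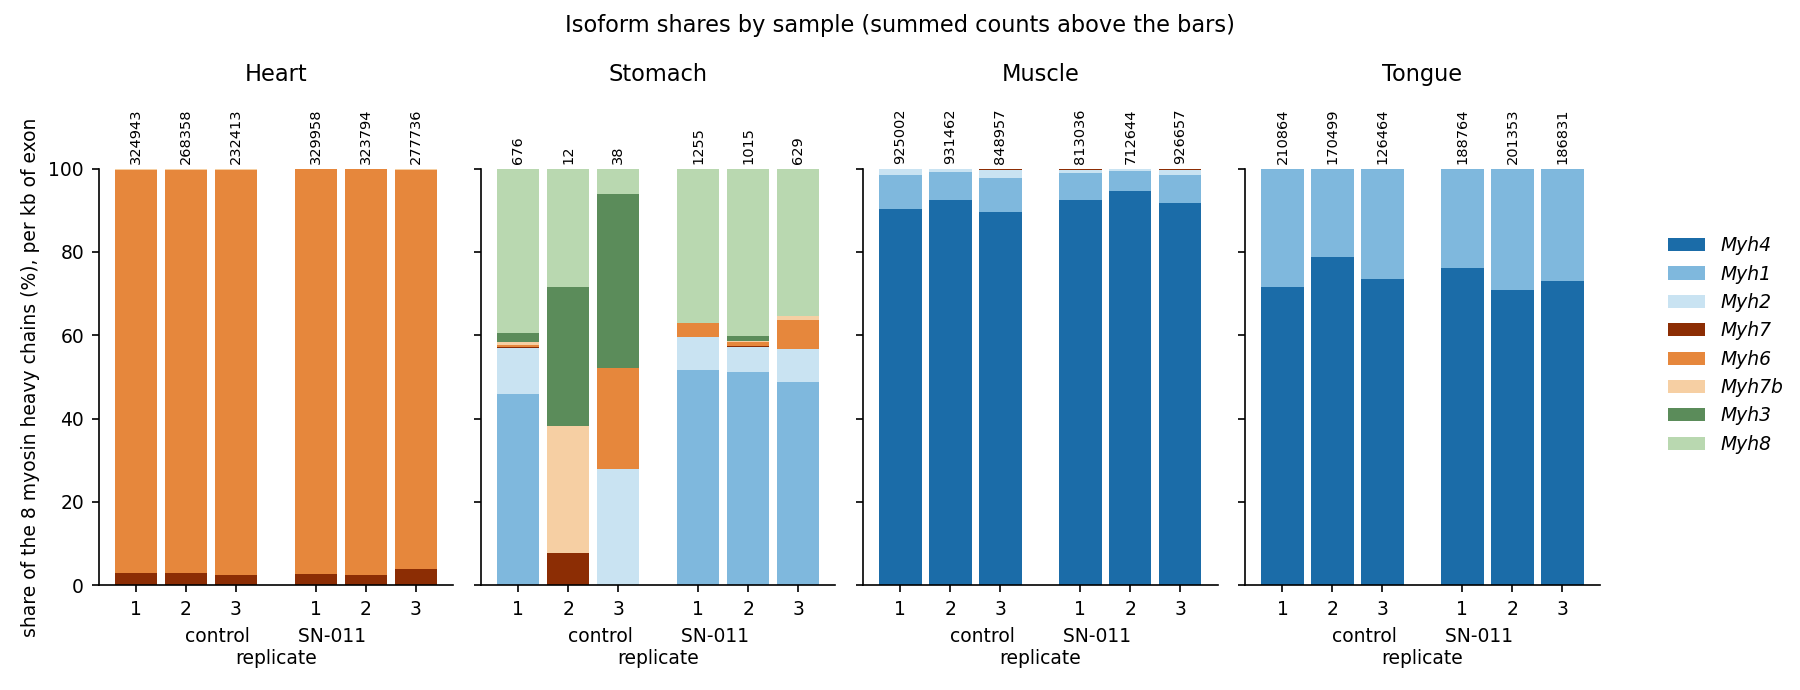
Stacked shares of the 8 members per kb of exon in each sample, in percent, with the summed counts of the members above each bar. Heart is almost all Myh6, muscle and tongue are Myh4 with Myh1, the 3 SN-011 stomachs and control 1 are Myh1 with Myh8, and stomach controls 2 and 3 rest on 12 and 38 counts.

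Within each tissue, the SN-011 and control samples were compared in edgeR (quasi-likelihood), and p-values were adjusted by Benjamini-Hochberg across the genes tested. Of the 32 combinations of member and tissue, 20 passed the filter on low counts. Of these 0 had an adjusted p under 0.05, 0 had an unadjusted p under 0.05, and the lowest adjusted p was 0.234. The share of all genes with an adjusted p under 0.05 was 0.848% (heart), 0% (stomach), 0.0141% (muscle) and 0% (tongue). The share at an unadjusted p under 0.05 was 22.4%, 24.6%, 14.8% and 12.5%. DESeq2, edgeR's exact test, other scalings, other filters and the joint fit also called 0 members in each tissue.

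In the heart, 3 members were tested. Myh7 was at 641, 684 and 401 CPM in controls and 787, 700 and 885 CPM after SN-011. All 3 treated hearts were above all controls, with a log2 fold change of 0.46 (SE 0.21, adjusted p = 0.234, edgeR). Groups that do not overlap were found for 27.2% of all genes tested in the heart. Myh6 was at 16998, 17766 and 11974 CPM in controls and 21330, 20554 and 16572 CPM after SN-011, a log2 fold change of 0.32 (SE 0.24, adjusted p = 0.456, edgeR), with control replicate 3 the lowest and the groups overlapping. Myh7b was at 42.3, 80.7 and 55.4 CPM in controls and 46.0, 38.9 and 58.3 CPM after SN-011 (log2 fold change −0.32, SE 0.23, adjusted p = 0.458, edgeR). Against control replicate 1 alone, the control without high gastric gland markers and the one of the other sex, the value was 0.18 for Myh7b and 0.30 for Myh7. These rest on 1 control, with the spread taken from the SN-011 samples, and no call is read from them.

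In muscle all 8 members were tested. Myh4 was at 43681, 48444 and 37961 CPM in controls and 48490, 54748 and 47806 CPM after SN-011, with a log2 fold change of 0.22 (SE 0.15, adjusted p = 0.561, edgeR). With library totals alone this value was −0.020, because that scaling moved the median of all genes in muscle from −0.084 to −0.31. Myh1 was at 4187, 3769 and 3690 CPM in controls and 3509, 2906 and 3719 CPM after SN-011 (log2 fold change −0.20, SE 0.14, adjusted p = 0.567). Myh2 was at 832, 461 and 1016 CPM in controls and 560, 410 and 702 CPM after SN-011 (−0.47, SE 0.33, adjusted p = 0.573). All 3 adult fast chains overlapped between groups.

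Slow Myh7 was at 97.3, 25.4 and 134 CPM in control muscle and 169, 50.9 and 284 CPM after SN-011. The groups overlapped through SN-011 replicate 2, and the log2 fold change was 0.97 (SE 0.76, adjusted p = 0.613, edgeR). It was 0.37 without SN-011 replicate 3, 0.53 without control replicate 2 and 1.45 without control replicate 3. Myh7b was at 5.86, 2.94 and 4.49 CPM in controls and 6.68, 9.71 and 8.11 CPM after SN-011. Its groups did not overlap, at a log2 fold change of 0.88 (SE 0.37, adjusted p = 0.346, edgeR), in a tissue where 34.5% of all genes tested did not overlap. Myh6 had 81, 51 and 50 counts in control muscle and 225, 0 and 188 after SN-011, and Myh3 had 121, 41 and 54 against 41, 0 and 78. SN-011 replicate 2 had 0 counts of both, and without it Myh6 was higher by 1.97 on the log2 scale (adjusted p = 0.0218, edgeR), when 7.4% of all genes were called. Myh8 had 97, 84 and 124 counts against 42, 117 and 85, with a log2 fold change of 0.08 (SE 0.51) whose sign turned under several alternatives.

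In tongue 6 members were tested. Myh4 was at 8449, 8597 and 5714 CPM in controls and 8457, 9085 and 8362 CPM after SN-011 (log2 fold change 0.19, SE 0.20, adjusted p = 0.704, edgeR). Myh1 was at 3500, 2425 and 2165 CPM in controls and 2790, 3920 and 3245 CPM after SN-011 (0.30, SE 0.23, adjusted p = 0.592). Myh2 was at 12.6, 7.77 and 10.6 CPM against 8.30, 14.2 and 14.1 CPM, and its groups overlapped as well. Embryonic Myh3 and perinatal Myh8 had 95, 36 and 35 and 178, 65 and 84 counts in controls, against 75, 28 and 65 and 63, 83 and 136 after SN-011, with control replicate 1 the highest for both. Myh7b had 24, 7 and 13 counts in controls and 5, 8 and 12 after SN-011 (log2 fold change −0.75, SE 0.58, adjusted p = 0.593, edgeR). Of the 6 tested, 0 tongue members had groups that did not overlap, where 17.8% of all genes tested in tongue had. The sum of 6 squamous epithelium markers in the tongue ranged from 13259 to 59798 CPM in controls and from 16643 to 25189 CPM after SN-011, so the mixture of tissues differed between samples, and its part in the member levels was not tested.

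In the stomach, 3 members passed the filter. Myh1 was at 18.6, 0 and 0 CPM in controls and 28.7, 25.4 and 14.3 CPM after SN-011. Myh8 was at 29.5, 0.312 and 0.214 CPM in controls and 38.3, 36.9 and 19.2 CPM after SN-011. For both genes control replicate 1 lay among the SN-011 stomachs and the other controls near 0, and the tests gave log2 fold changes of 1.91 (SE 1.56, adjusted p = 0.476) and 1.67 (SE 1.37, adjusted p = 0.479, edgeR). Myh2 was at 5.00, 0 and 0.588 CPM against 5.01, 3.23 and 2.58 CPM (0.98, SE 1.20, adjusted p = 0.643).

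Without stomach control replicate 1, Myh1 and Myh8 had adjusted p of 0.0274 and 0.0216 (edgeR), where 0.356% of all genes were called. In that setting the controls held 0 and 0 counts of Myh1 and 5 and 4 of Myh8, so both genes passed the filter only through the SN-011 samples, and these p-values are not read as support for a change. This control was the one that differed in sex and held the most muscle markers, so in the stomach 1 library decided on which side of the threshold Myh1 and Myh8 fell. The 8 skeletal muscle fiber markers were at 590, 113 and 104 CPM in controls and 401, 427 and 340 CPM after SN-011, so that control replicate 1 was the highest of all 6 for these markers, and 6 of 6 smooth muscle markers, 8402, 1498 and 2908 CPM in sum in controls and 11206, 5839 and 6720 CPM after SN-011, had positive fold changes. The part of muscle tissue caught in each sample was not tested. Of the members under the filter, Myh6 had 2, 0 and 9 counts in controls and 32, 8 and 35 after SN-011, and in CPM its groups did not overlap, as for 33% of all genes tested in the stomach.

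**Figure D3:**
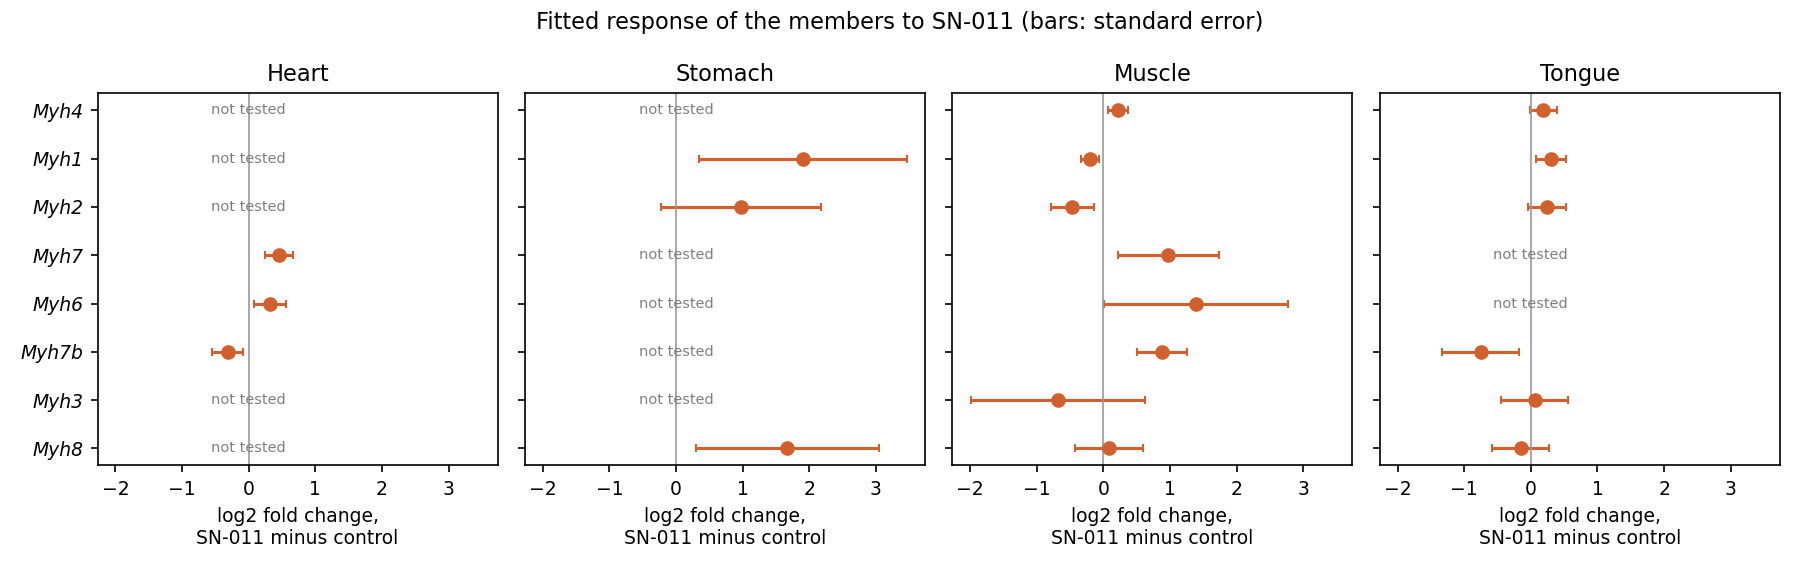
Fitted log2 fold change of each member between SN-011 and control in each tissue, with its standard error, where positive values are higher after SN-011. Members that did not pass the filter on low counts are marked as not tested, and 0 of the 20 fitted values had an adjusted p under 0.05.

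The sum of the 8 members was 17683, 18532 and 12431 CPM in control hearts and 22163, 21294 and 17516 CPM after SN-011 (exact permutation p = 0.3). In muscle it was 48819, 52712 and 42817 CPM against 52755, 58134 and 52540 CPM (p = 0.2, exact permutation test), and with library totals alone the difference of the means turned from 6360 to −1965 CPM. In tongue it was 11979, 11037 and 7898 CPM against 11267, 13027 and 11634 CPM (p = 0.4, exact permutation test). In the stomach it was 54.5, 0.748 and 2.03 CPM against 73.9, 66.9 and 38.6 CPM (p = 0.2, exact permutation test). The groups overlapped in every tissue. With 3 samples against 3 the smallest p of this test is 0.1, so no tissue could have passed 0.05.

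Whether the response to SN-011 differed between tissues was tested as an interaction in the joint fit. Of the 48 comparisons (8 members over 6 pairs of tissues), 0 had an adjusted p under 0.05 and 0 an unadjusted p under 0.05, and the lowest adjusted p was 0.370. Of all genes, the response differed from that of the heart for 2.01% in stomach, 0.00507% in muscle and 0% in tongue, from that of the stomach for 6.95% in muscle and 0.821% in tongue, and between muscle and tongue for 0.0355%. Without stomach control replicate 1, 7 of these comparisons passed. They were Myh1 and Myh8 in the stomach against each other tissue and Myh2 in the stomach against muscle, where 2.66% of all genes (heart), 6.02% (muscle) and 2.12% (tongue) were called. They rest on the same stomach controls, with 0 and 0 counts of Myh1, 5 and 4 of Myh8 and 0 and 11 of Myh2, and are not read as a difference between tissues.

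Several transcribed rows overlap the members, and their counts are given because the study describes a strand-specific library preparation but the strand setting of the counting is not given in the sources used here. If strand was not used in counting, reads of a gene and of its antisense partner cannot be told apart. Myhas, which runs antisense from within Myh1 to just upstream of Myh4, was at 57.0, 73.5 and 68.3 CPM in control muscle and 23.0, 52.6 and 23.9 CPM after SN-011. All 3 treated muscles were below the controls, at a log2 fold change of −1.0 (SE 0.34, adjusted p = 0.275, edgeR), which did not pass. SN-011 replicate 2 was the nearest to the controls, and without it the value was −1.50 (adjusted p = 0.0152, edgeR), when 7.4% of all genes were called. Groups that do not overlap were found for 34.5% of all genes tested in muscle. In tongue Myhas was at 41.1, 33.5 and 19.4 CPM against 22.3, 26.3 and 26.6 CPM, and the groups overlapped. 9430073C21Rik, antisense to Myh2, had 31, 58 and 99 counts in control muscle and 4, 0 and 7 after SN-011, with groups that did not overlap (log2 fold change −3.83, SE 1.13, adjusted p = 0.225, edgeR). It was called by edgeR's exact test (adjusted p = 0.0145) and without SN-011 replicate 2 (adjusted p = 0.0367, edgeR), where 3.37% and 7.4% of all genes were called. In tongue it had 44, 18 and 2 counts against 22, 21 and 33, and the groups overlapped. Trpc4ap shares 37 bases of exon with Myh7b on the opposite strand. In muscle it was at 129, 139 and 131 CPM in controls and 201, 205 and 193 CPM after SN-011. The groups did not overlap (log2 fold change 0.59, SE 0.10, adjusted p = 0.107, edgeR). Trpc4ap was called by DESeq2, by edgeR's exact test and without SN-011 replicate 2, where 6.2%, 3.37% and 7.4% of all genes were called.

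At the cardiac locus, Mhrt, an antisense RNA of Myh7, was at 63.9, 51.8 and 39.2 CPM in control hearts and 90.3, 79.8 and 68.9 CPM after SN-011. The groups did not overlap, at a log2 fold change of 0.63 (SE 0.18, adjusted p = 0.108, edgeR). The adjusted p was 0.0247 with DESeq2, 0.0475 with edgeR's exact test, 0.0469 with the replicate block and 0.00365 with no filter. In these settings 8.43%, 5.68%, 1.5% and 6.23% of all genes were called. It was 0.111 with DESeq2 size factors, 0.141 with library totals alone, 0.0898 with at least 10 counts in every sample and 0.925 in the joint fit. Leaving out each sample gave 0.0666 (without control replicate 1) to 0.307 (without SN-011 replicate 2), so Mhrt passed in none of these. The row of the hairpin gene Mir208b, in an intron of Myh7, was at 37.9, 32.3 and 16.3 CPM in controls and 43.3, 45.9 and 41.2 CPM after SN-011 (0.59, SE 0.26, adjusted p = 0.218, edgeR). With no filter Mir208b was called (adjusted p = 0.0198, edgeR), where 6.23% of all genes were called. Myh7, Mhrt and Mir208b thus had the same order of groups in the heart, and because they overlap these are not independent counts. Groups that do not overlap were found for 27.2% of all genes tested in the heart. Other rows at Myh7 did not separate the groups. Antisense Gm31251 was at 15.9, 10.8 and 6.79 CPM in control hearts and 16.1, 8.02 and 13.1 CPM after SN-011. Gm17428, on the opposite strand, was at 6.64, 5.18 and 3.42 CPM against 7.32, 6.91 and 6.24 CPM. Mir208a, in an intron of Myh6, had 66, 34 and 39 counts in control hearts and 30, 22 and 33 after SN-011 (−0.53, SE 0.34, adjusted p = 0.386, edgeR). All 3 treated hearts lay below the controls, the opposite order to Mir208b. The margin was small, with 2.081 CPM as the highest treated value and 2.086 CPM as the lowest control. Gm49130, antisense to Myh6, was at 23.7, 30.7 and 20.1 CPM in control hearts and 27.1, 33.2 and 33.2 CPM after SN-011 (0.33, SE 0.17, adjusted p = 0.302, edgeR). Gm29015, antisense to Myh7, Mir499 in Myh7b and Mir6923 in Myh3 had 0 counts in all samples. The libraries were made from polyadenylated RNA, so the Mir rows count reads over the hairpin genes and not the mature miRNAs. The mature miRNAs of the slow and cardiac genes are shown because their host genes differ while their seeds (bases 2 to 8, in capitals, RefSeq, GRCm38) are nearly alike.
mmu-miR-208a-3p, host Myh6, chr14:54949072-54949093, reverse strand: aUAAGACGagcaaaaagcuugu
mmu-miR-208b-3p, host Myh7, chr14:54975710-54975731, reverse strand: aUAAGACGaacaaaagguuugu
mmu-miR-499-5p, host Myh7b, chr2:155622893-155622913, forward strand: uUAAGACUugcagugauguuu
The seed is the same in the pair from chromosome 14 and differs from that of miR-499-5p in its last base.

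The genes that work with the members were read from lists of the sarcomere and of fiber type. For the 14 slow fiber and cardiac genes, all tested in muscle, 0 had an adjusted p under 0.05 by edgeR, 5 had an unadjusted p under 0.05 (14.8% of all genes did), 12 had a positive fold change and the median log2 fold change was 0.99, beside −0.084 over all genes tested. DESeq2 called 2 of them higher and 1 lower, and 6.2% of all genes. In 11 of the 14 (78.6%) the groups did not overlap, 10 with SN-011 above and 1 below, against 34.5% of all genes. The cardiac and slow light chain Myl2 was at 107, 15.2 and 102 CPM in controls and 156, 134 and 221 CPM after SN-011 (log2 fold change 1.19, SE 0.66, adjusted p = 0.473). The slow troponin Tnnt1 was at 80.4, 18.4 and 84.9 CPM against 121, 85.3 and 163 CPM (1.01, SE 0.56, adjusted p = 0.471), and Ankrd2, a stretch-responsive protein of slow muscle, at 145, 48.5 and 78.2 CPM against 312, 303 and 333 CPM (1.80, SE 0.38, adjusted p = 0.144). These examples were chosen after their values were seen. The list's median stayed positive under each alternative, from 0.69 without control replicate 2, the sample low in slow genes, to 1.25 without control replicate 3, and it was 0.76 with library totals alone.

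In the heart, 13 genes of the same list were tested and 12 had a positive fold change, with a median of 0.41 beside −0.010 over all genes, and 6 (46.2%) had groups that did not overlap, against 27.2% of all genes. Of the 13, 0 had an adjusted p under 0.05 in edgeR, 5 had an unadjusted p under 0.05, against 22.4% of all genes, and DESeq2 called 5, against 8.43% of all genes. In the stomach and tongue the medians were 1.11 over 11 genes and 0.10 over 12, and leaving out a sample moved them from 0.51 (without SN-011 replicate 1) to 2.42 (without control replicate 1) and from −0.040 (without SN-011 replicate 3) to 0.71 (without control replicate 1). Without control replicate 1, 3 of the stomach genes and 2 of the tongue genes were called, where 0.356% and 12.5% of all genes were. The fast fiber genes had medians of 0.097 over 13 genes in muscle, 0.038 over 13 in heart, 0.83 over 13 in stomach and 0.061 over 14 in tongue, and 0 passed in any tissue by edgeR. In muscle Tnni2, Tnnt3, Myoz1 and Actn3 were higher after SN-011 without overlap, at unadjusted p of 0.0251, 0.0149, 0.0338 and 0.0303 (edgeR). Gpd1 was lower without overlap (unadjusted p = 0.115, edgeR), and the remaining fast genes overlapped. At an unadjusted p under 0.05 were 14.8% of all genes in muscle. For the fast genes, leaving out control replicate 1 moved the stomach median to 4.33 with 4 genes called and the tongue median to 0.28 with 3 called. In the stomach the 2 controls left held 9.48 and 8.13 CPM of summed sarcomeric myosin light chain and kinase genes, against 82.7, 67.8 and 55.6 CPM after SN-011. The stomach calls of both lists in this setting are not read as support for a change. Leaving out SN-011 replicate 2 gave 3 calls of fast genes in muscle at a median of 0.060, where 7.4% of all genes were called. Leaving out SN-011 replicate 3 turned the heart and tongue medians of the fast genes to −0.23 and −0.025.

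**Figure D4:**
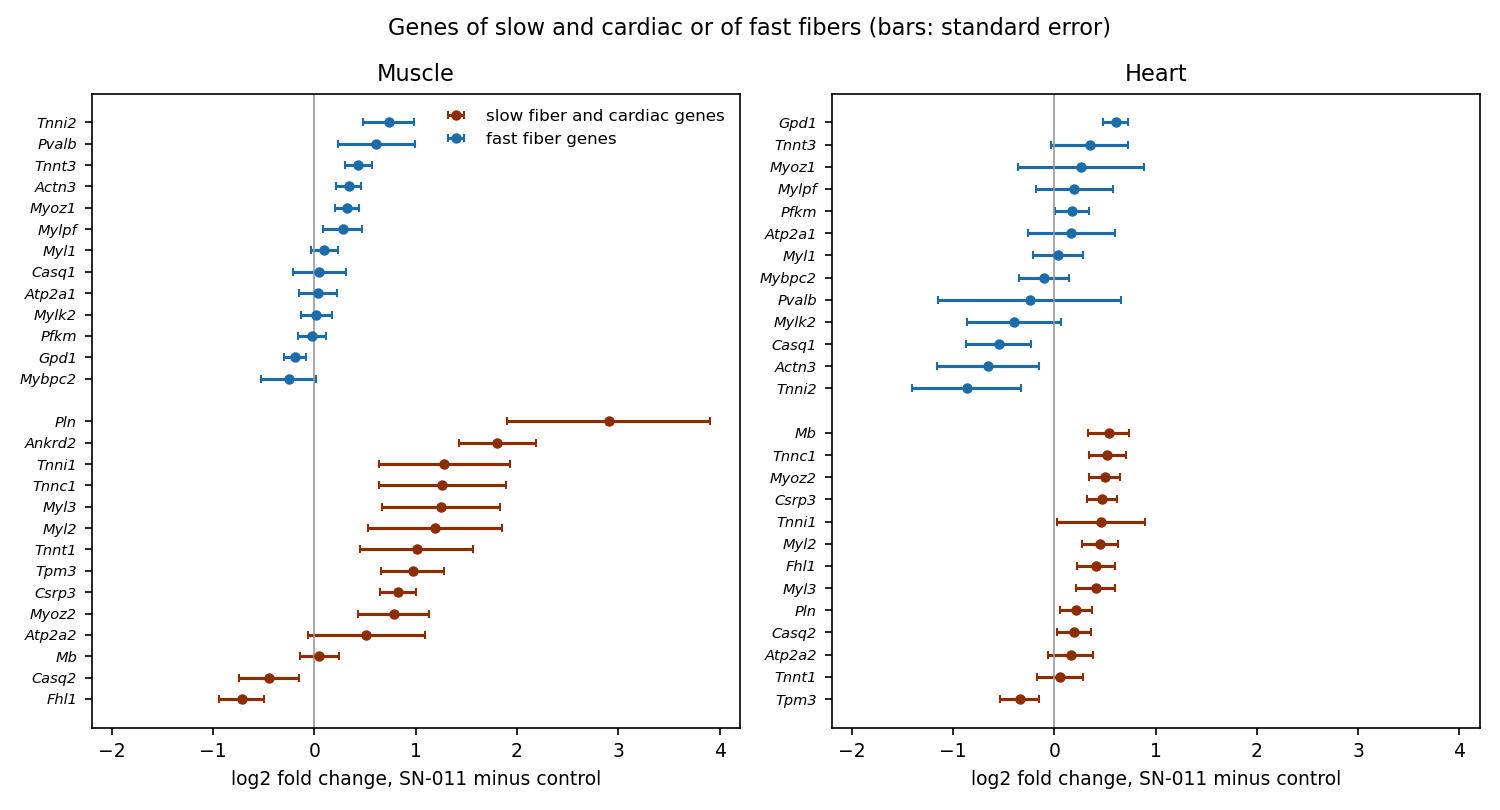
Fitted log2 fold changes between SN-011 and control with standard errors, for the tested genes of the slow fiber and cardiac list and of the fast fiber list in muscle and heart. In muscle 12 of 14 slow or cardiac genes and 10 of 13 fast genes lie above 0, with medians of 0.99 and 0.097, and no single gene passed the adjusted threshold.

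Among the 23 tested regulators of fiber type and cardiac genes in muscle, 0 had an adjusted p under 0.05 in edgeR, 17 had a negative fold change and the median was −0.44, where 55.5% of all genes were negative with a median of −0.084. Without SN-011 replicate 2, the library with few genes counted, the median was −0.17, with 13 negative and 11 positive. Mef2c, a transcription factor of muscle genes, was at 387, 424 and 431 CPM in controls and 188, 248 and 217 CPM after SN-011, with a log2 fold change of −0.93 (SE 0.14, adjusted p = 0.0855, edgeR), and it was chosen after its values were seen. Of 8 sarcomeric myosin light chain and kinase genes, 8 were tested in heart, 7 in muscle, 6 in stomach and 6 in tongue, with medians of 0.067, 0.34, 0.87 and 0.042 and 0 calls. Thick filament and M-band genes had medians of 0.40 over 7 genes in heart, −0.11 over 9 in muscle, 2.28 over 7 in stomach and 0.022 over 9 in tongue, with 0 calls. The other myosin heavy chains, of smooth muscle and non-muscle cells, had 0 calls over 4 or 5 genes tested in each tissue.

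Of the 11 genes of myosin folding and turnover, Trim63 in the heart was the one gene of all these lists that passed. Trim63 encodes MuRF1, a ubiquitin ligase of the sarcomere that marks myosin heavy chain for degradation. It was at 111, 158 and 98.4 CPM in control hearts and 292, 355 and 264 CPM after SN-011, a log2 fold change of 1.31 (SE 0.20, adjusted p = 0.0281, edgeR). In muscle it was at 2307, 440 and 419 CPM against 4986, 4838 and 4269 CPM (2.15, SE 0.70, adjusted p = 0.258), and in tongue at 111, 71.7 and 38.3 CPM against 204, 272 and 192 CPM (1.60, SE 0.36, adjusted p = 0.268). Without control replicate 1, both were called, at 3.44 (adjusted p = 0.0107) in muscle and 2.02 (adjusted p = 0.00573) in tongue, where 0.467% and 12.5% of all genes were called. In tongue, DESeq2 and edgeR's exact test also called Trim63 (adjusted p = 0.00136 and 0.01), where 2.52% and 1.53% of all genes were called. All treated samples lay above all controls in these 3 tissues. Groups that do not overlap, in either direction, were found for 27.2% of all genes tested in heart, 34.5% in muscle and 17.8% in tongue. The heart call was lost in the joint fit (adjusted p = 0.803) and when any sample but control replicate 2 was left out, with adjusted p of 0.0524 to 0.169, while the fold change kept to 1.17 to 1.54.

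**Figure D5:**
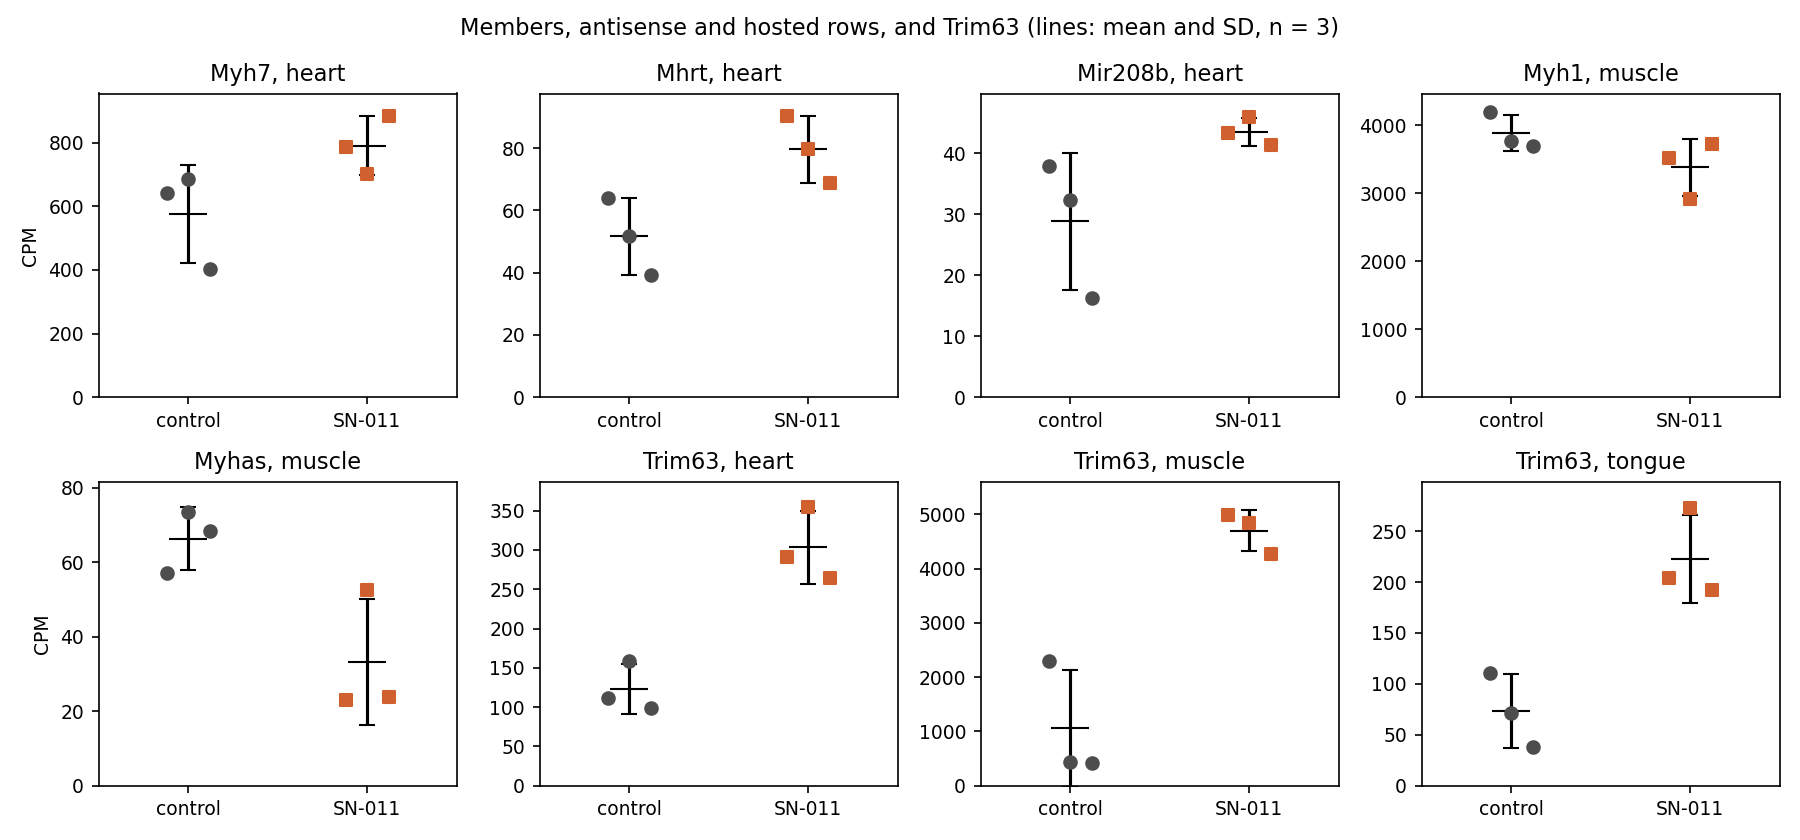
CPM of Myh7, its antisense Mhrt and the Mir208b row in heart, of Myh1 and its antisense Myhas in muscle, and of Trim63 in heart, muscle and tongue, with each sample as a point and lines for the mean and SD (n = 3). Treated and control samples are apart in every panel but that of Myh1, and of the panels Trim63 in heart passed the adjusted threshold. Groups that do not overlap were found for 27.2% of all genes tested in heart, 34.5% in muscle and 17.8% in tongue.

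The genes whose levels followed each member most closely over the 24 samples were found by the root mean square difference of centered log2(CPM + 1) values, with CPM from library totals, among genes with a mean of at least 10 CPM in a group, which describes mainly the tissues. For Myh1 these were Tnnt3 (0.861), Mybpc1 (1.02) and Mylpf (1.08), for Myh4 Atp2a1 (1.72), Tnnt3 (2.24) and Pvalb (2.60), and for Myh2 Ampd1 (1.13), Ppp1r27 (1.30) and Sypl2 (1.33). For Myh7 they were Tnnc1 (1.15), Myl2 (1.28) and Myl3 (1.49), for Myh6 Mybpc3 (1.22), Nppa (1.43) and Lrrc10 (1.87), and for Myh7b Popdc2 (0.700), A530016L24Rik (0.819) and Gm10435 (0.874). Of the developmental chains, Myh8 was nearest to Hmcn2 (0.950), Chrdl2 (0.999) and Kcna2 (1.02), and Myh3 to Tpd52l1 (0.544), Bpgm (0.565) and Etl4 (0.581). Myh4 was farther from its nearest genes than the other members.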

How the data were processed

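Raw counts of read pairs per gene were deposited by the authors, 1 file for each of 24 samples. Per the labels, total RNA was enriched for polyadenylated transcripts, and HISAT2, HTSeq and mm10 are named in the submitters' processing notes, whereas the methods of the study name featureCounts. Versions and the strand setting are not given in the sources used here. Of 54532 gene identifiers, 54409 matched GENCODE M21. Samples were grouped by tissue and treatment from the labels, 3 in each of 8 groups.

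SN-011 was compared with control within each tissue by the quasi-likelihood test of edgeR 4.0.16 (R 4.3.3) on the counts, after the filterByExpr filter (minimum count 10, minimum total 15) and TMM scaling, with a prior count of 0.125 and Benjamini-Hochberg adjustment at 0.05. A joint fit of all 24 samples gave the tissue differences and interactions. Shares above 1% and summed CPM were compared by two-sided exact permutation tests over 20 relabellings, whose smallest p is 0.1. Exon lengths were the union of annotated exons. Scripts were tested on simulated data. The alternatives were DESeq2 (1.42.0) and its size factors, library totals alone, 2 other filters, edgeR's exact test, the replicate number as a block, the joint fit and leaving out each sample. A fit without control replicates 2 and 3 was added after the data were seen.

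The members and lists were chosen with earlier results of these data known. All members, the overlapping genes, the 3 nearest genes per member and up to 2 called genes per list and direction were named. Promoter and miRNA sequences came from RefSeq (GRCm38), where 8 of 8 members matched.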

Additional observations from a re-analysis of the deposited data

How the results depend on the processing

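Of 293 recomputed values of counts, shares and sums, 279 kept their direction and side of the threshold, and of 330 recomputed fold changes, 303 did. The exact tests of shares and sums cannot give a p under 0.1, so these values could not cross the threshold. For shares and sums the tally therefore shows only whether the direction was kept. The cause of each change below was not tested. With library totals alone, the muscle fold changes of Myh4 and Myh8 turned to −0.020 and −0.18 and the muscle sum to −1965 CPM. Myh8 in muscle turned to −0.099 with the replicate block and −0.066 in the joint fit, and over the samples left out it ran from −0.51 (with −0.013 without control replicate 2) to 0.41. In tongue the same range was −0.18 to 0.61 for Myh3 (−0.14, −0.17 and −0.071 in between) and −0.52 to 0.31 for Myh8 (0.084 without SN-011 replicate 1). As a log2 ratio to the other members, the stomach shares of Myh2 and Myh6 turned to 9.94 and 10.3, values set by the offset because stomach control replicate 2 held 0 counts of both. Leaving out a sample, differences of shares ran in percentage points from −0.516 to 0.262 for Myh6 and −0.0777 to 0.624 for Myh7 in heart, −12.2 to 1.70 for Myh2, −8.58 to 3.52 for Myh6, −3.86 to 0.0350 for Myh7 and −15.2 to 0.0362 for Myh7b in stomach (these rest on the 12 and 38 counts of control replicates 2 and 3 and are not read), and −0.719 to 2.81 for Myh1 and −2.82 to 0.755 for Myh4 in tongue. The number of members called ran from 0 to 2 in stomach (2 without control replicate 1), 0 to 1 in muscle (1 without SN-011 replicate 2) and 0 to 7 for the interactions (7 without stomach control replicate 1). The number of tissue differences called ran from 35 to 39 over the alternatives.

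The deviations of same-numbered samples had mean correlations of −0.0677 in heart, 0.068 in stomach, 0.0296 in muscle and −0.313 in tongue. Single values ran from −0.467 in tongue to 0.291 in stomach. With 3 such pairs in a tissue, these values cannot decide whether the numbers pair control with SN-011 samples. Control replicate 1 was of the other sex in all 4 tissues, and the labels do not say whether a number marks 1 mouse across tissues. A joint fit with a replicate block that treats it so called 36 tissue differences and 0 interactions of members. With the replicate block within tissues, 0 members were called in each tissue. Over all genes it called 242 in heart against 137, 181 in stomach against 0, 0 in muscle against 2 and 0 in tongue. DESeq2 called 1361, 2389, 880 and 418 genes in heart, stomach, muscle and tongue, and edgeR's exact test 918, 1835, 479 and 253. With no filter 1888, 1368, 110 and 18 genes were called, with at least 10 counts in every sample 265, 126, 75 and 0, with library totals alone 249, 0, 1 and 0, and in the joint fit 1, 2738, 474 and 4. Leaving out a sample gave 1 to 787, 0 to 64, 0 to 1103 and 0 to 2135 genes. With 3 samples a group, absence of a call does not show that a member kept its level, and the stomach members rest on few counts.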
